A study of Mus musculus with 17 samples.

Results

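Imprinted genes are expressed from the copy inherited from one parent, and the copy is chosen by DNA methylation laid down in the egg or the sperm. The 10 imprinted genes described here, H19, Igf2, Igf2r, Cdkn1c, Peg3, Mest, Grb10, Plagl1, Meg3 and Dlk1, were a fixed list taken from a background of 32093 protein-coding and long noncoding RNA genes. H19, Igf2r, Cdkn1c, Grb10 and Meg3 are expressed mainly from the maternal copy in mouse, and Igf2, Peg3, Mest, Plagl1 and Dlk1 from the paternal copy. Each gene was examined over its body in the GENCODE annotation of mm10 (GRCm38) and 5 kb on either side, a window in which islands of histone H3.3 were located. The 10 windows summed to 480.7 kb and did not overlap each other. Of the 10 genes, 4 lie on chromosome 7 and 2, Dlk1 and Meg3, lie beside each other on chromosome 12.

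Lens epithelium and lens fibers were microdissected from newborn wild-type CD-1 mice, an outbred stock, and H3.3 ChIP-seq was carried out in 2 biological replicates per compartment. The sample titles give day 1 after birth and the protocols P0.5, and lenses were pooled, 150 per sample by the labels, while the Methods give 200 lenses without saying whether per sample. The epithelium is the single layer of proliferating cells at the front of the lens, and fibers are the elongated, post-mitotic cells that arise from it. An island is a stretch called in 1 library as holding more ChIP reads than background, and a missing island means that no enrichment was called, not that H3.3 was absent. Reads were not assigned to a parental allele, so no value below belongs to the expressed or the silent copy.

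Histone H3.3 is an H3 variant that is deposited throughout the cell cycle, chiefly at promoters, enhancers and bodies of active genes, and also at some silent repeats and telomeres. At imprinted clusters the active allele and the methylated control region can carry different chromatin, and the zinc finger protein ZFP57 binds a methylated hexamer to keep the mark in the embryo. In the lens, insulin-like growth factor signalling supports epithelial growth and fiber differentiation, and the cyclin-dependent kinase inhibitor encoded by Cdkn1c marks cells that leave the cell cycle to become fibers.

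The epithelium lists contained 10389 and 14434 islands, built from 1331369 and 1430373 reads, and the fiber lists 27059 and 35940 islands, built from 5041885 and 5359085 reads. How many reads were sequenced is not known. All 8 lens fiber markers were more covered in each fiber library than in each epithelium library, against 39.2% of all genes. Islands covered 11.1% and 19.1% of their pooled windows in epithelium and 78.7% and 76.2% in fiber. Of 6 lens epithelium markers, 4 were also more covered in each fiber library. Pooled over the 6, the shares were 2.10% and 5.34% in epithelium and 8.96% and 11.3% in fiber. Since both marker lists leaned to fiber, these counts cannot check the dissection. Windows of pigment epithelium and corneal markers held no island in either epithelium library, and islands covered between 0% and 6.41% of them in fiber. Tyr, Rpe65, Krt12 and Krt14 were at 0 throughout, and the remaining gene of each list held an island in fiber. Endothelial markers were covered over 1.51% and 1.90% in epithelium and 5.85% and 4.33% in fiber. Macrophage markers were covered over 0% and 2.41% in epithelium and 4.59% and 3.54% in fiber. Tek, Adgre1 and Ptprc were at 0 throughout. The 3 retina markers were covered over 22.3% and 4.52% in epithelium and 18.5% and 12.0% in fiber. Of 3 genes per list, 2 endothelial, 1 macrophage, 1 pigment, 1 retina and 0 corneal were more covered in each fiber library. The share over all genes was 39.2%. The part of other cell types, and of library size, in the values below was not tested.

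An island lay in the window of 6 of the 10 imprinted genes in at least 1 library, against 58.6% of all genes, and in every library at 3 of them, Igf2r, Cdkn1c and Mest, against 19.7%. H19, Igf2r and Peg3 were covered more in each fiber library than in each epithelium library, 3 of 10 genes against 39.2% of all genes, so this share was no higher than the background. None of the 10 was covered less in each fiber library, a pattern held by 0.682% of all genes. The other 4 genes, Igf2, Grb10, Dlk1 and Meg3, held no island in any library. The median difference in covered share over the 10 genes was 5.05 percentage points in favour of fiber, beside 2.33 over all genes. Over genes with an island in at least 1 library, the median was 16 percentage points.

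**Figure D1:**
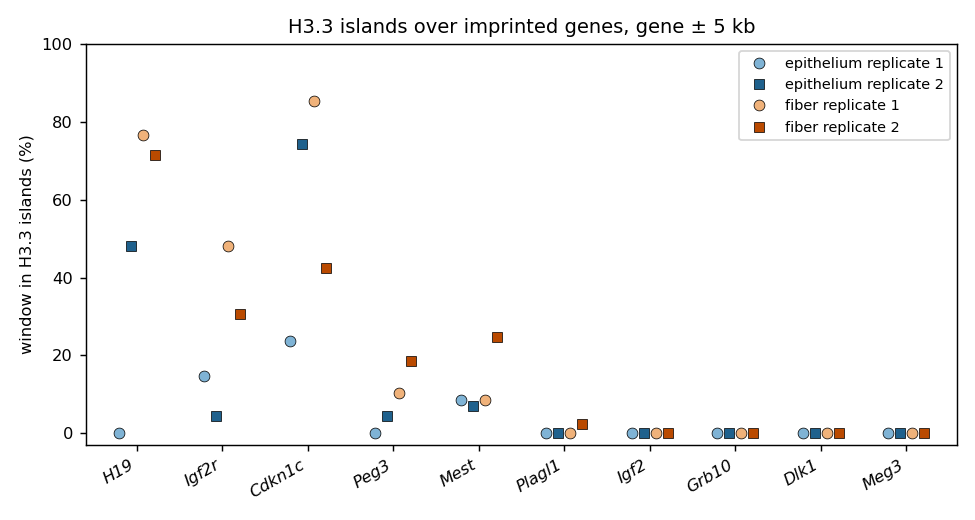
Percentage of each window (gene body and 5 kb on either side) that lay in H3.3 islands, for each imprinted gene on the horizontal axis and each of the 4 libraries (circles replicate 1, squares replicate 2, blue epithelium, orange fiber). The libraries of the compartments do not overlap at H19, Igf2r and Peg3, and 4 genes sit at 0 throughout.

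Pooled over the 10 windows, islands covered 4.24% and 4.98% of the sequence in epithelium and 15.4% and 12.8% in fiber. The mean was 4.61% ± 0.518 (SD, n = 2) in epithelium and 14.1% ± 1.85 (SD, n = 2) in fiber, a difference of 9.52 percentage points and a ratio of 3.06. The exact two-sided permutation test gave p = 0.33, the smallest value that 2 libraries against 2 can give. Over all gene windows the covered share was 3.80% and 4.0% in epithelium and 13.6% and 14.1% in fiber, values close to those of the imprinted genes. When 10389 islands were taken from every library by read density, the difference turned to -0.83 percentage points, and when they were taken by read count it was 3.7. With islands of at least the median density of their library it was 1.15.

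**Figure D2:**
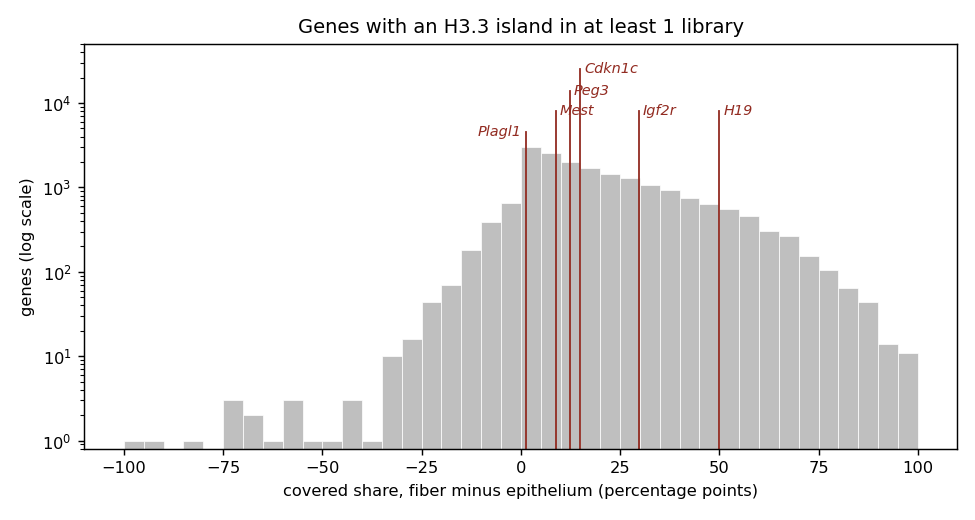
Distribution of the difference in covered share, fiber minus epithelium in percentage points (horizontal axis), over genes with an island in at least 1 library, with the number of genes on a log scale. Red lines mark the 6 imprinted genes with an island, from 1.23 for Plagl1 to 50.0 for H19, all on the side of fiber.

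The growth axis is the best known theme of imprinting. H19 is a noncoding RNA transcribed from the maternal chromosome and a host of the microRNA miR-675. Its gene (ENSMUSG00000000031.16) lies on the minus strand at chr7:142575529-142578143. The window was covered over 0% in epithelium replicate 1, 48.1% in epithelium replicate 2, 76.7% in fiber replicate 1 and 71.5% in fiber replicate 2. Both fiber libraries stood above both epithelium libraries, with a difference of 50.0 percentage points, but the epithelium replicates lay far apart, at 24.1% ± 34.0 (SD, n = 2), and without epithelium replicate 1 the difference was 25.9. In epithelium replicate 1 the nearest island was 9.53 kb from the gene. Over the gene body alone the compartments overlapped, since epithelium replicate 2 and fiber replicate 1 covered it whole and fiber replicate 2 covered 79.2% of it.

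The islands at H19 differed more in extent than in density. A single island of 5000 bp with 143 reads spanned the gene in epithelium replicate 2. One of 22200 bp with 685 reads ran in fiber replicate 1 from 2.06 kb upstream of the start to 20.1 kb downstream of it, into the neighbouring gene Nctc1. In fiber replicate 2 an island of 29600 bp with 947 reads, longer than 99.5% of the islands of that library, began 0.543 kb inside the gene and also reached Nctc1. A short island of 1000 bp just upstream held 44.0 reads per kb in that library, denser than 99.0% of its islands. The summed density over H19 was 29.5, 30.9 and 30.8 reads per kb in epithelium replicate 2 and fiber replicates 1 and 2. Counting only islands that lay mostly in the window removed the long fiber islands and gave a difference of -15.9 percentage points.

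Both arms of miR-675, which lie within H19 on the minus strand, were inside islands of epithelium replicate 2 and both fiber libraries. Their mature sequences from RefSeq are shown with the seed, bases 2 to 8, in capitals, because this hairpin is the small RNA product that the covered gene body encodes. The seeds differ between the arms.
miR-675-5p: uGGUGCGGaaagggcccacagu
miR-675-3p: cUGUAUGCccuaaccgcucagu

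Upstream of H19 lies the control region that binds the insulator protein CTCF on the unmethylated maternal copy and thereby separates Igf2 from its enhancers. The letters CGNGGNGGC, a core of the CTCF motif searched on both strands, occurred 3 times in the 5 kb before the H19 start, the nearest at 2.17 and 2.63 kb. At least 3 such matches were present in the same interval of 2.45% of all genes, and at least 1 in 28.4%. None of the 3 lay in an island in any of the 4 libraries: the island of fiber replicate 1 ended 2.06 kb upstream, and that of fiber replicate 2 began 4.06 kb upstream. The matches are shown because they mark the uncovered interval between those islands, on the minus strand of RefSeq's GRCm38 sequence with the core in capitals. At 2 of the 4 core matches of the H19 window the core overlapped a match to TGCCGC, the hexamer of ZFP57.
H19 upstream, chr7:142580291-142580339: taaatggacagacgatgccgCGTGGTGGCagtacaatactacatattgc
H19 upstream, chr7:142580746-142580794: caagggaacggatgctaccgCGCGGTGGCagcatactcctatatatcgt
H19 upstream, chr7:142582016-142582064: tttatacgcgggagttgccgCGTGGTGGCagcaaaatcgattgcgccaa

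Igf2, the fetal growth factor of the paternal copy that shares enhancers with H19, held no island within 5 kb in any library. The gene (ENSMUSG00000048583.16) lies on the minus strand at chr7:142650766-142666816, and the nearest island was 40.2 and 57 kb away in epithelium and 70.6 and 40 kb away in fiber. Neither arm of miR-483, whose hairpin lies in an Igf2 intron, was in an island. No 75-nt stretch of the H19 or Igf2 window, the length of a read, occurred elsewhere in the assembled genome on either strand.

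Igf2r, the maternally expressed receptor that carries insulin-like growth factor 2 to the lysosome, showed many islands. The gene (ENSMUSG00000023830.14) lies on the minus strand at chr17:12682406-12769664 and held 3 and 2 islands in epithelium and 5 and 8 in fiber. Its window was covered over 14.8% and 4.52% in epithelium and 48.2% and 30.6% in fiber, a difference of 29.7 percentage points, and both fiber libraries stood above both epithelium libraries. Density went the other way, with 26.9 and 25.5 reads per kb in epithelium and 23.6 and 25.4 in fiber, where the middle values nearly met. With islands of at least the median density of their library, the difference in covered share was -0.10 percentage points, and with equal numbers of the densest islands it was -5.45.

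The position of the Igf2r islands differed between replicates. Islands of the epithelium replicates shared no base, and 19 kb lay in islands of both fiber libraries, 12.4 kb of it in no epithelium island. Covered shares were 14.8% and 4.52% in epithelium and 48.2% and 30.6% in fiber. The overlap that such shares alone would give was not computed. All 18.8 kb covered in either epithelium library were also covered in at least 1 fiber library. The Igf2r start was within a 1600-bp island of epithelium replicate 2 and a 23600-bp island of fiber replicate 1, which held 556 reads. It was outside islands in the other two libraries, and fiber replicate 2 had its nearest island 1.46 kb inside the gene.

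Airn, a paternally expressed antisense RNA that silences Igf2r, starts on the plus strand within an Igf2r intron at position 12741311. That start was in islands of epithelium replicate 1 and both fiber libraries, while in epithelium replicate 2 the nearest island was 14.3 kb away. In the interval from 27 to 28.2 kb after the Igf2r start, TGCCGC occurred 8 times over both strands, and all 8 were in the islands of those 3 libraries and in none of epithelium replicate 2. The Igf2r window held 18 such matches in all. The maternally methylated control region of the locus lies around the Airn start, and 3 of the 8 matches are shown because they mark the covered stretch there, on the minus strand of GRCm38 with the hexamer in capitals.
Airn start region, chr17:12741999-12742044: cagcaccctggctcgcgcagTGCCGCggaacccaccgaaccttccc
Airn start region, chr17:12742173-12742218: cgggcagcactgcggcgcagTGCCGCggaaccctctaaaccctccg
Airn start region, chr17:12742338-12742383: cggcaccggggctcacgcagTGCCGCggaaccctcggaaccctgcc

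Grb10 encodes an adaptor that restrains insulin and insulin-like growth factor receptors and is maternally expressed outside the brain. The gene (ENSMUSG00000020176.17, minus strand, chr11:11930508-12038683) held no island in a window of 118.2 kb. Its nearest island was 3069.5 and 336.3 kb away in epithelium and 2809.3 and 48.9 kb away in fiber, the longest distance among the 10 genes in every library but epithelium replicate 1, where Plagl1 was farther. The first 5 kb of the gene held 5 matches to TGCCGC, a number reached in that interval by 1.56% of all genes, and none was in an island. Of 3 Grb10 starts in the basic GENCODE transcript set, 1 had a ratio of observed to expected CpG of 1.06 in the surrounding 1 kb. The ratio was 0.299 and 0.252 around the others. Around the annotated gene start it was 0.448, against a median of 0.385 around all gene starts. None of these starts was in an island.

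**Figure D3:**
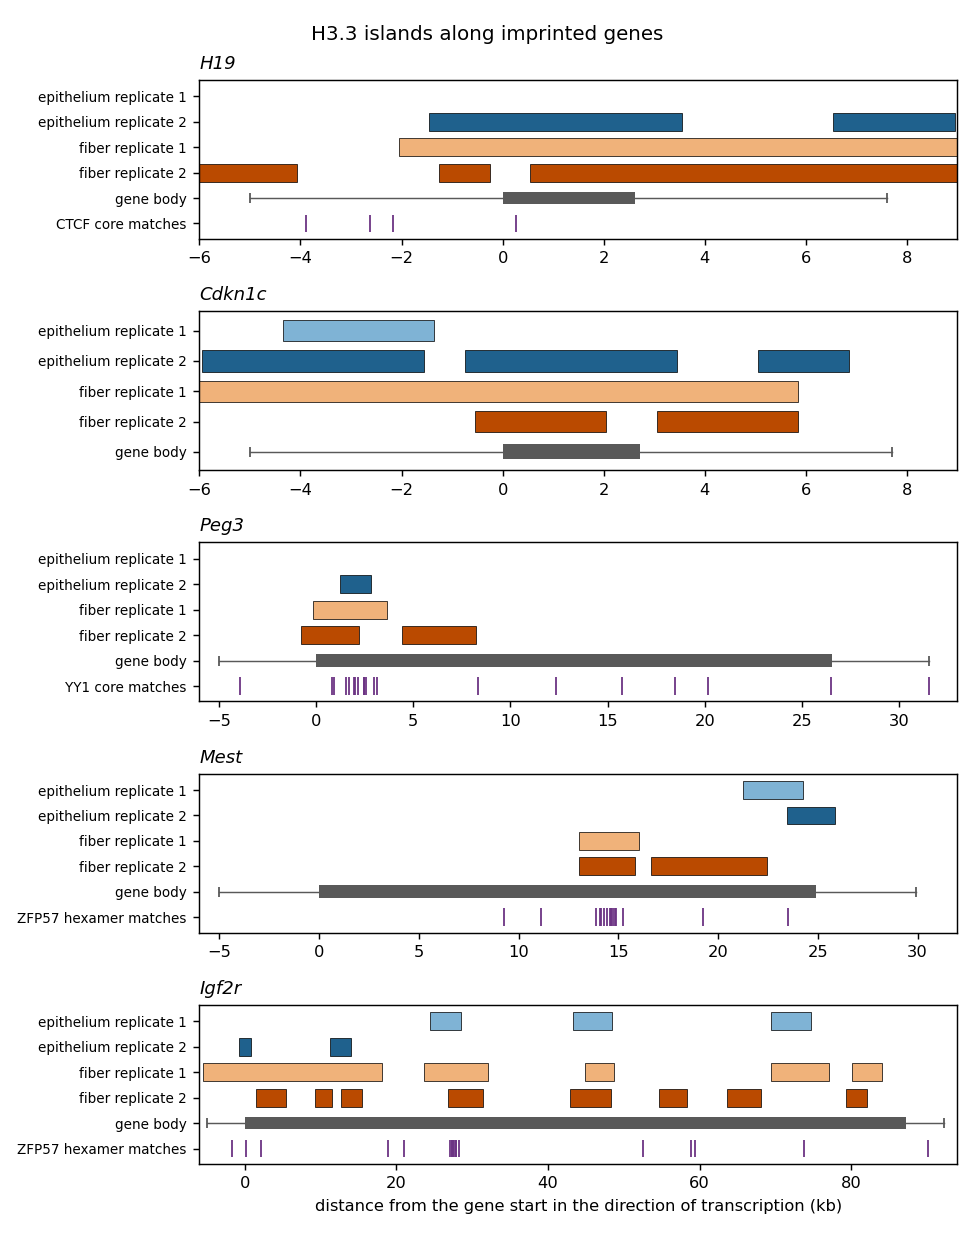
Islands of each library along 5 imprinted genes, with distance from the gene start in kb in the direction of transcription on the horizontal axis. Grey bars are gene bodies, thin lines the 5-kb flanks, purple ticks the matches of the named motif, and islands that run past an axis are cut there. The H19 upstream CTCF matches fall between islands, and 12 of the 16 Mest hexamers fall in the islands of both fiber libraries.

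Among the genes of cell cycle and transcription, Cdkn1c, the maternally expressed inhibitor of cyclin-dependent kinases, held an island in every library. The gene (ENSMUSG00000037664.13) is on the minus strand at chr7:143458339-143461050. The covered share of its window was 23.6% and 74.3% in epithelium and 85.4% and 42.5% in fiber. Epithelium replicate 2 stood above fiber replicate 2, so the compartments overlapped, at 49.0% ± 35.9 (SD, n = 2) in epithelium and 63.9% ± 30.3 (SD, n = 2) in fiber. Without epithelium replicate 2 the difference of 14.9 percentage points became 40.3, and it became -10.4 without epithelium replicate 1 and -6.49 without fiber replicate 1. With islands of at least the median density of their library it was -31.7, and with equal numbers of the densest islands -38.7, and under both Cdkn1c was less covered in each fiber library.

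At Cdkn1c the replicates of epithelium differed most over the gene itself. In epithelium replicate 1 the only island (3000 bp, 87 reads) lay from 4.35 to 1.35 kb upstream of the start, and none over the body. The body was covered whole in epithelium replicate 2 and fiber replicate 1 and over 75.6% in fiber replicate 2. Fiber replicate 1 had a single island of 15200 bp with 407 reads, while fiber replicate 2 had separate islands of 2800 and 2600 bp. Islands of the epithelium replicates shared 2.80 kb and those of the fiber replicates 5.40 kb, but no base was covered in all 4 libraries. The read density of its islands came to 29 and 30.1 per kb in epithelium and 26.8 and 28.9 in fiber, lower in each fiber library.

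The CTCF core CGNGGNGGC had 5 matches in the Cdkn1c window, and all 5 were in islands of epithelium replicate 2 and fiber replicate 1. Islands of those libraries covered 74.3% and 85.4% of the window. In epithelium replicate 1, 2 of the matches were in islands, and in fiber replicate 2, 3 were.

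Plagl1 encodes a zinc finger transcription factor of the paternal copy that promotes cell cycle arrest and regulates other imprinted genes. Its window (ENSMUSG00000019817.18, plus strand, gene at chr10:13060504-13131694) held 1 island, in fiber replicate 2. That island was 2000 bp long with 66 reads, lay wholly in intron sequence from 56.7 to 58.7 kb after the gene start, and covered 2.46% of the window. In the other three libraries the window was empty, with the nearest island 191 kb away in epithelium replicate 2 and in fiber replicate 1. The 6 hexamer matches between 30 and 30.8 kb, around the annotated promoter inside the gene, were in no island.

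Peg3, a paternally expressed zinc finger gene that influences growth and maternal behaviour, was covered over 0% and 4.38% of its window in epithelium and 10.4% and 18.6% in fiber. The difference was 12.3 percentage points (8.21 without fiber replicate 2), with both fiber libraries above both epithelium libraries. The gene (ENSMUSG00000002265.16) is on the minus strand at chr7:6703892-6730431, and the paternally expressed Usp29 starts close by on the other strand. The starts of Peg3 and of the nearest Usp29 transcript were in islands of both fiber libraries and of neither epithelium library. The share of all gene starts with this pattern was not counted. The island of epithelium replicate 2 (1600 bp, 56 reads) lay wholly in intron sequence from 1.23 to 2.83 kb after the start, and the nearest island of epithelium replicate 1 was 547 kb away.

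Density at Peg3 ran against coverage. The epithelium island held 35.0 reads per kb, denser than 90.6% of the islands of its library, and the fiber libraries had 28.2 and 25.6 reads per kb. With equal numbers of the densest islands the difference in covered share turned to -2.19 percentage points, and with the islands of most reads Peg3 had none in any library, so the difference was 0.

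The first intron of Peg3 is known for a cluster of sites of the zinc finger protein YY1 in the region methylated on the maternal copy. GCCATNTT, a core of the YY1 motif, occurred 12 times over both strands in the first 5 kb, from 0.838 to 3.13 kb, whereas at least 10 matches were present in the first 5 kb of 0.0592% of all genes. All 12 were in the island of fiber replicate 1, 7 in that of fiber replicate 2 and 8 in that of epithelium replicate 2. The same interval held 8 matches to TGCCGC, a number reached by 0.159% of all genes, with 8, 8 and 1 of them in those islands. Of the 12 YY1 matches, 5 were in islands of all 3 libraries, and 3 of these are shown on the minus strand with the core in capitals, as the part of Peg3 that was covered most often.
Peg3 intron, chr7:6728382-6728429: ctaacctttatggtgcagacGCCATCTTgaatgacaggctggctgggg
Peg3 intron, chr7:6728431-6728478: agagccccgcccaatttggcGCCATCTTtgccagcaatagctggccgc
Peg3 intron, chr7:6728860-6728907: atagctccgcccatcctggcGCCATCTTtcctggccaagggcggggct

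Mest encodes a paternally expressed membrane protein of the hydrolase fold and is active in mesodermal and placental growth. The gene (ENSMUSG00000051855.15, plus strand, chr6:30723547-30748465) held an island in every library, covering 8.59% and 6.87% of the window in epithelium and 8.59% and 24.6% in fiber. Fiber replicate 1 and epithelium replicate 1 had the same share, so the compartments overlapped, although their islands lay in different places. Reads per kb of island came to 29 and 29.2 in epithelium and 29.7 and 24.8 in fiber.

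In epithelium the Mest islands were at the end of the gene, from 21.3 to 25.9 kb after the start, where they also entered the end of the convergent gene Copg2. Of the 4.60 kb covered there in either epithelium library, 3.40 kb lay in no fiber island. Both fiber libraries instead had an island that began 13.1 kb after the annotated gene start and contained the starts of transcripts Mest-202 and Mest-211, at positions 30738053 and 30738050. The islands held 89 and 87 reads over 3000 and 2800 bp. In epithelium the nearest island to the Mest-211 start was 6.75 and 8.95 kb away. Fiber replicate 2 had a further island of 5800 bp with 126 reads that contained miR-335, a microRNA hosted by a Mest intron.

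TGCCGC occurred 12 times within 1364 bp around the Mest-211 start, 13.9 to 15.2 kb after the gene start, and all 12 were in the islands of both fiber libraries and in none of epithelium. The Mest window held 16 such matches in all. The match at 23.5 kb went the other way, in islands of both epithelium libraries and of neither fiber library. The 17 matches of the YY1 core in the first 5 kb after the annotated gene start were outside islands in every library. The 200 bases before the Mest-211 start held 12 CpG dinucleotides and were in islands of both fiber libraries in full and of neither epithelium library. How many of all gene starts had this pattern was not counted. Over the genome, islands covered 178 and 188 Mb in fiber and 45.4 and 48.9 Mb in epithelium. The 200 bases are shown on the plus strand as the promoter within the Mest islands of both fiber libraries. The capitals mark the hexamer on the other strand. The mature arms of miR-335 are given with their seeds in capitals.
Mest-211 promoter, chr6:30737850-30738049: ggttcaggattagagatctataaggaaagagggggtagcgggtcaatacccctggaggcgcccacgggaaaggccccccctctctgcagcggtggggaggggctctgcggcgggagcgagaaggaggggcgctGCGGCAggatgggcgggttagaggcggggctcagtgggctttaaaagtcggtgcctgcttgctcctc
miR-335-5p: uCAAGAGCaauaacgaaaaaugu
miR-335-3p: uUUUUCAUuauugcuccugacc

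Dlk1 and Meg3 share a cluster in which the paternal copy expresses Dlk1, a transmembrane inhibitor of differentiation related to the Notch ligands, and the maternal copy expresses the noncoding RNA Meg3. No library had an island in the window of Dlk1 (ENSMUSG00000040856.17, plus strand, chr12:109452823-109463336), and the nearest was 39.0 and 12.8 kb away in epithelium and 38.8 and 13 kb away in fiber. Meg3 (ENSMUSG00000021268.17, plus strand, chr12:109541001-109571726) was likewise without an island, with the nearest 127 and 101 kb away in epithelium and 29.2 and 22.8 kb away in fiber. The microRNAs miR-770, miR-673 and miR-1906 within the Meg3 window were therefore in none. Of 75-nt stretches in the Meg3 window, 1.61% occurred elsewhere in the genome, the highest share of the 10 windows.

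Across the 10 windows, 93 matches to TGCCGC were found, and 10.8%, 6.45%, 38.7% and 36.6% of them were in islands of the epithelium pair and the fiber pair, in that order. The 37 CTCF cores were in islands at 5.41% and 29.7% in epithelium and 32.4% and 16.2% in fiber. For the 124 YY1 cores these shares were 1.61% and 8.06% in epithelium and 18.5% and 8.87% in fiber. The hexamers had both fiber libraries well above both epithelium libraries, the YY1 cores had them narrowly above, and the CTCF cores overlapped. Islands covered 4.24% and 4.98% of the same windows in epithelium and 15.4% and 12.8% in fiber. In each fiber library the covered hexamers included 12 around the Mest-211 start, 8 in the first 5 kb of Peg3 and 8 around the Airn start. The share of matches in islands over all genes was not computed, so no excess at imprinted genes can be read from these values. The matches describe letters in the assembly, cluster within a few genes, and do not show binding.

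Read density within islands was compared at the 3 genes with an island in every library. The median over Igf2r, Cdkn1c and Mest was 29 and 29.2 reads per kb in epithelium and 26.8 and 25.4 in fiber, a ratio of fiber to epithelium of 0.897 (exact two-sided permutation test, p = 0.33, the smallest possible). Density was lower in each fiber library at 2 of these genes, Igf2r and Cdkn1c, against 16.2% of all genes with an island in every library, and higher in each fiber library at none, against 31% of them. With 3 genes, such counts are descriptions of single loci. Over all islands at the 10 genes the median was 29 and 30.2 reads per kb in epithelium and 26.3 and 26.1 in fiber, beside 28.3 and 28.1 in epithelium and 27.4 and 27.5 in fiber over whole libraries.

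**Figure D4:**
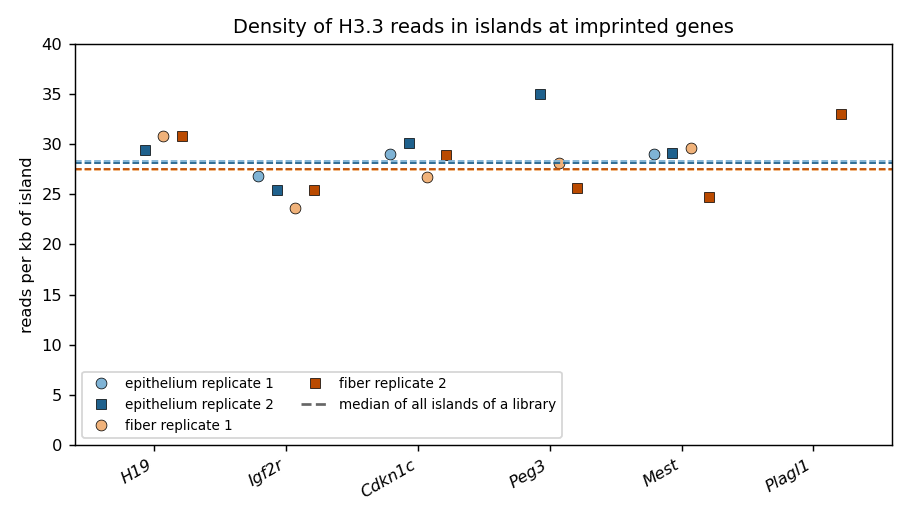
Reads per kb of island (summed reads over summed length of the islands that overlap a window) for the 6 imprinted genes with an island, by library; dashed lines are the medians of all islands of each library. Values lie between 23.6 and 35.0, and Igf2r and Cdkn1c are lower in each fiber library than in each epithelium library.

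The number of islands at the 10 genes was 5 and 9 in epithelium and 9 and 18 in fiber. Their median length was 4000 and 2400 bp in epithelium and 7600 and 3300 bp in fiber, a ratio of 1.70 (exact two-sided permutation test, p = 0.67) that fell to 1.03 without fiber replicate 1, and the libraries overlapped. No base of any of the 10 windows was covered in all 4 libraries. Epithelium replicates shared 3.60 kb, at Cdkn1c and Mest, and fiber replicates shared 37.7 kb, of which 21.2 kb lay in no epithelium island. Of the 40.7 kb covered in either epithelium library, 89.2% was also covered in at least 1 fiber library, and Mest accounted for 3.40 of the 4.40 kb that was not.

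Split by the expressed allele, 3 of 5 maternally expressed genes and 3 of 5 paternally expressed genes carried an island somewhere in their windows, and 2 and 1 of them were more covered in each fiber library. Among 46 other imprinted genes, islands were present at 27 in some library and at 10 in every library, 18 were more covered in each fiber library and none was less covered in each. These shares are near those of all genes given above, 58.6%, 19.7%, 39.2% and 0.682%. The median difference over the 46 genes was 1.34 percentage points.

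Among the other imprinted genes that were more covered in each fiber library, the largest differences were at Nnat, Zrsr1, Mcts2, H13, Cd81 and Airn. Nnat, a proteolipid expressed in neurons, was covered over 16.1% and 0% in epithelium and 90.4% and 66.9% in fiber, a difference of 70.6 percentage points. Zrsr1, a paternally expressed splicing factor relative within an intron of Commd1, differed by 44.1 percentage points, and Cd81, a tetraspanin in the same cluster as Cdkn1c, by 34.1. Mcts2 lies within H13, a signal peptide peptidase, and the pair differed by 36.8 and 36.4 percentage points over shared islands. Airn differed by 30.7 percentage points, and its window shares islands with that of Igf2r.

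Islands were found in at least 1 library at 12 of 14 genes of insulin-like growth factor signalling, against 58.6% of all genes. Of the 14, 10 were more covered in each fiber library, against 39.2% of all genes. The median difference over the 14 was 32.2 percentage points. The largest differences were at Irs1, an adaptor of the receptors, with 6.15% and 8.49% in epithelium and 74.4% and 77.6% in fiber, and at Igf2bp2, an RNA-binding protein named for its Igf2 target, with 5.60% and 6.12% in epithelium and 64.6% and 69.8% in fiber. The imprinted ligand Igf2 was without islands. As only 58.6% of all genes held one in some library, 1 gene without an island shows no contrast with its pathway. Among 7 factors that maintain imprints, 4 were more covered in each fiber library, against 39.2% of all genes. Yy1 led with a difference of 75.8 percentage points, followed by Ctcf with 41.1, and Zfp57, Zfp445 and Dppa3 had no island. The median over the 7 was 16.7 percentage points.

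**Figure D5:**
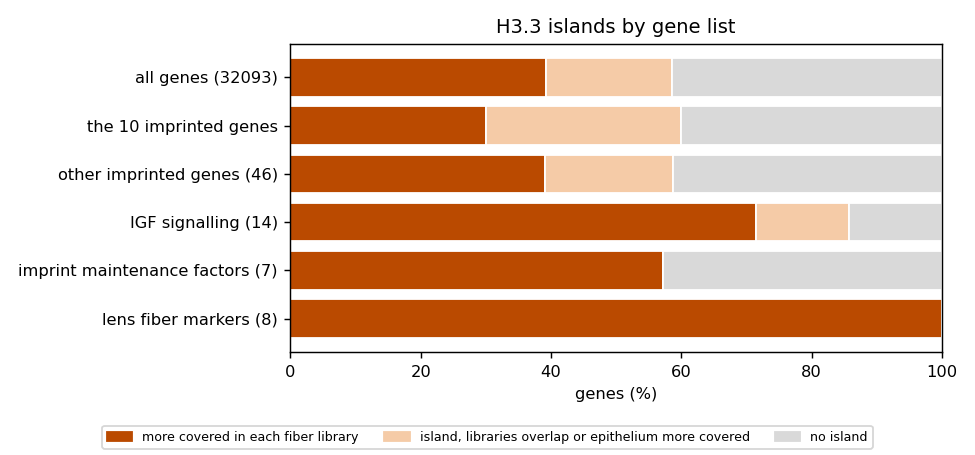
Percentage of genes in each list that were more covered in each fiber library than in each epithelium library (dark), that had an island without this separation (light) or that had no island (grey), with the number of genes in brackets. The imprinted genes lie near all genes, and all 8 lens fiber markers are dark.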

How the data were processed

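Per the labels and the Methods, the authors mapped 75-nt single-end reads to mm10 with BWA and called H3.3 islands separately in each library with SICER2 (window 200 bp, gap 600 bp, false discovery rate 0.01). The deposited island lists give the count of ChIP reads per island, not normalized. Whether duplicates were removed and whether the pooled input served as control are not given in the sources used here, and sequencing depth is unknown. The pooled input and the bisulfite libraries were not analysed here.

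Gene bodies came from GENCODE M21, widened by 5 kb. For every gene and library, covered bases, overlapping islands and reads per kb of island were computed in Python 3.11.15 with numpy 2.4.6 and pandas 2.3.3 (figures, matplotlib 3.10.9). Because islands were called per library, no count model across libraries was fitted. Compartments were compared by an exact two-sided permutation test and by whether libraries overlapped. Calculations were tested on simulated islands. Replicates are biological per the labels, and 2 per compartment limit the precision. Same-numbered libraries did not deviate together (r = 0.00256 across 18819 genes, which are not independent), and they were treated as unpaired. This value cannot tell whether they came from the same lenses. All 10 members were described, and from the other lists the 6, 2 and 2 genes with the largest differences were named (for other imprinted genes, among those more covered in each fiber library). The members and lists were chosen with earlier results of these data known. Motif letters were searched on both strands of RefSeq GRCm38, and 11 mature miRNAs of 6 miRNA genes in the windows were matched to RefSeq by symbol. Alternatives changed the flank, the islands kept, the overlap, the density measure and the libraries. Some marker values and a sequence are not reported here.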

Additional observations from a re-analysis of the deposited data

How the results depend on the processing

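The difference in covered share stayed in favour of fiber under every alternative run but one: with 10389 of the densest islands from every library it was -0.83 percentage points. It shrank to 1.15 with islands of at least the median density and to 3.7 with equal numbers by reads. Leaving out each library gave 8.21 to 10.8. The ratio of reads per kb turned to 1.04 with islands of at least the median density and, at the same value, with equal numbers of the densest islands (1 gene left in each), and to 3.21 when reads were counted per kb of window, which also measures coverage. Divided by the library total of reads in islands it was 0.238. Left-out libraries gave 0.873 to 0.921. It had no value with equal numbers of islands by reads, since no member then had an island in every library. The length ratio stayed above 1, from 1.03 (without fiber replicate 1) to 2.38 with each library left out, and was 2.39 and 3.99 with equal numbers by density and by reads. Members with an island in every library numbered 1 with either density choice and 0 with equal numbers by reads, and 3 to 5 with a library left out (5 without epithelium replicate 1). Members more covered in each fiber library numbered 1, H19, with equal numbers by density or by reads, and 4 to 5 with a library left out: Mest joined without epithelium replicate 1 or fiber replicate 1, Plagl1 without fiber replicate 1, and Cdkn1c without epithelium replicate 2 or fiber replicate 2. Members less covered in each fiber library numbered 1 with either density choice (Cdkn1c) and 1 with equal numbers by reads (Mest), and 0 with each library left out. Genes without overlap between compartments reversed at H19 (-15.9, only islands that lay mostly in the window), Igf2r (-0.10 and -5.45, the density choices) and Peg3 (-2.19, equal numbers by density). Among genes with overlap, Cdkn1c turned to -31.7 and -38.7 under the density choices and to -10.4 and -6.49 without epithelium replicate 1 and fiber replicate 1, and Mest to -7.73 with equal numbers by reads. With same-numbered libraries as a replicate block, the difference was 9.52 and the ratios 0.897 and 1.62, the counts 3, 3 and 0. This pairing changed no call. Against protein-coding genes only, the backgrounds were 64.5%, 23.9%, 45% and 0.67%. The cause of these changes was not tested.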

Other observations

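Other imprinted genes, some of them in the clusters of the 10 genes, differed in whether any island was present. Those named here were chosen after their values were seen. Snrpn, Snurf, Ndn, Magel2, Mkrn3 and Peg12, all of the Prader-Willi cluster on chromosome 7, had no island in any library. Ube3a, of the same cluster, was covered over 2.37% and 2.80% of its window in fiber and 0% in epithelium. Rtl1, Rian, Mirg and Dio3, the other listed genes of the Dlk1 and Meg3 cluster, had no island in any library. Gnas, which encodes the stimulatory G protein alpha subunit, had no island in epithelium and was covered over 30.4% and 27.1% of its window in fiber. Its antisense neighbour Nespas had 20% and 8.26% in fiber and none in epithelium. Slc22a2, an organic cation transporter beside Igf2r, was covered over 20.6% and 26.1% in fiber and 0% in epithelium. Tssc4 and Cd81, near Cdkn1c, were covered in every library, Tssc4 over 93.2% and 77.3% in epithelium and 100% and 75.6% in fiber. Slc38a4 and Copg2 had mean differences below 0, at -1.27 and -0.93 percentage points, with overlapping libraries.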
